A study of Homo sapiens with 2 samples.

Results

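The genes described here are 10 genes tied to liver cancer stem cells, measured by RNA sequencing in a hepatocellular carcinoma (HCC) cell line with and without a knockout of MAEL. They are the 7 surface markers CD24, CD44, CD47, PROM1, ANPEP, EPCAM and ICAM1, and the 3 transcription factors SOX2, SOX4 and SOX9. They were chosen by name from the 58735 genes of the deposited tables, and all 10 were found, each as 1 row. All 10 passed the filter of at least 10 counts in at least 1 library, which 17887 genes passed.

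Of the libraries, 1 came from wild-type cells (MAEL WT) and 1 from knockout cells (MAEL KO), both of the liver line PLC8024, of epithelial morphology, which the labels also call Alexander cells. MAEL, a protein of the piRNA pathway of the germ line, was targeted with an sgRNA and Cas9. Per the study's methods, sorted cells were grown as single clones, whereas the MAEL WT cells were labelled as not treated. Transfection, sorting and cloning therefore cannot be told apart from the knockout. Total counts were 19904136 in MAEL WT and 20833332 in MAEL KO, and MAEL itself had 1 and 0 counts, so its RNA does not check the labels, which say that the knockout was verified by western blot and a T7E1 assay. With 1 library per condition no difference given here has a replicate check, and no p-value was computed. The interval of a single gene was obtained from the fraction of its reads found in MAEL KO (95%, exact, Clopper-Pearson) and covers counting error only. Intervals of ratios between genes came from a conditional odds ratio of their counts (95%) and also cover counting error only. The line is labelled as liver, and all 12 hepatocyte markers listed had counts in both libraries, with summed FPKM of 1692 in MAEL WT and 4995 in MAEL KO. Of 8 leukocyte markers 2 passed the count filter, LYZ among them, with CD3E and MS4A1 at 0 counts in both libraries and PTPRC at 3 and 0. Summed over the 8, there were 1301 counts in MAEL WT and 752 in MAEL KO. Of 8 fibroblast and stellate cell markers 3 passed the filter, and ACTA2 and PDGFRA were at 0 in both libraries. These 8 summed to 275 counts in MAEL WT and 177 in MAEL KO. Of 7 endothelial markers 2 passed the filter, and the 7 summed to 359 and 408 counts.

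Cancer stem cells are the cells of a tumor that renew themselves and give rise to the rest of it. In liver cancer they are told from other tumor cells by proteins on their surface, and antibodies to these proteins are used to sort them. The markers do unrelated work. Some hold cells to their surroundings, some cut or bind peptides, and some tell macrophages to spare the cell. The SOX factors bind DNA through a shared domain, the HMG box, and several of them set stem and progenitor states in the embryo and in adult tissue, among them SOX9 in the bile duct.

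The study's list of qPCR primers holds pairs for PROM1 (which encodes CD133), CD44, SOX2 and EPCAM, and the stretches that these pairs enclose are shown because they mark which transcripts such assays read. They were read from the GENCODE 29 transcripts on GRCh38, 5′ to 3′ on the strand of the gene, with the primer sites in capitals. The PROM1 and EPCAM pairs matched exactly. In the CD44 and SOX2 pairs 1 primer, as read here, was 1 difference away from the transcript, and the transcript's own letters are printed.

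PROM1: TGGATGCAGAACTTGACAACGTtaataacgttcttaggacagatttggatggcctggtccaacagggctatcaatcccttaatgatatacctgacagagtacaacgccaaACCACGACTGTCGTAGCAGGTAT
CD44: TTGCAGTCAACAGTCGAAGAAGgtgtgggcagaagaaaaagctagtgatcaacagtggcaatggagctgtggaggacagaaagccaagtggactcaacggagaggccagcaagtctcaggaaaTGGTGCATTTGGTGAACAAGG
SOX2: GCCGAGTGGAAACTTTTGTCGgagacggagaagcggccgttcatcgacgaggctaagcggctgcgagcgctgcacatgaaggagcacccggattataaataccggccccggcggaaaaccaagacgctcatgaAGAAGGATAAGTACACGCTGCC
EPCAM: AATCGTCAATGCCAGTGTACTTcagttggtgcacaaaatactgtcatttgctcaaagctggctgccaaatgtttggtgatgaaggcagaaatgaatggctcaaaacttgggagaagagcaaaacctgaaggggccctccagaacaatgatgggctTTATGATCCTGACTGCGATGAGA

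The PROM1 stretch is 133 bases long, lies at chr4:16009105-16016230 on the minus strand, and spans 3 coding exons. It was found in 7 of the 20 annotated PROM1 transcripts. The CD44 stretch of 144 bases, at chr11:35221711-35229250 on the plus strand, spans 2 exons and was found in 11 of 39 CD44 transcripts, in 9 of them as coding sequence. The SOX2 stretch of 155 bases, at chr3:181712589-181712743 on the plus strand, is coding sequence in the only SOX2 transcript, which has a single exon. The EPCAM stretch of 178 bases, at chr2:47373513-47373927 on the plus strand, spans 2 exons and was found in 4 of 6 EPCAM transcripts. The pair itself was found in 5 of 6, since it also encloses 415 bases of EPCAM-205, a transcript with a retained intron. The deposited counts take in reads over all exons of a gene, so for PROM1, CD44 and EPCAM they cover more transcripts than these assays do.

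On GRCh38 the surface marker genes lie at chr6:106969831-106975627 (CD24, minus strand), chr11:35138870-35232402 (CD44, plus), chr3:108043094-108091862 (CD47, minus), chr4:15963076-16084378 (PROM1, minus), chr15:89784889-89815401 (ANPEP, minus), chr2:47345158-47387601 (EPCAM, plus) and chr19:10270835-10286615 (ICAM1, plus). The SOX genes lie at chr3:181711924-181714436 (SOX2), chr6:21592768-21598619 (SOX4) and chr17:72121020-72126420 (SOX9), all on the plus strand.

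The 10 genes differed between the libraries in both directions. The log2 ratio of MAEL KO to MAEL WT (log2 fold change), on counts scaled by TMM factors with 1 added, was above 0 for 4 genes and below 0 for 6. The study used a threshold of 2 together with a cutoff on adjusted p-values, and only the threshold was applied here. Past this threshold of 2, 1 gene was higher in MAEL KO (ANPEP), and of all genes tested 2.16% were. Past it in the other direction 2 genes were lower (SOX2 and EPCAM), beside 5.64% of all genes. In either direction 3 of the 10 were past 2, beside 7.8% of all genes. SOX2 and EPCAM both had at most 3 counts in MAEL KO, and 2.88% of all genes tested were likewise past -2 with at most 3 counts there. With total counts as the scale 269 genes were higher and 1309 lower past 2, and with reference genes 149 and 2428, against 387 and 1008 by TMM. The median over the 10 genes was -0.28, with a 95% binomial interval of -3.60 to 1.58, and the median of all genes tested was -0.04. That interval reflects the spread between genes chosen by name, which are not replicates, and not the uncertainty of a knockout effect. Setting EPCAM at its ratio to a floor of 3 counts in place of the fitted value left the median at -0.28. This could not come out otherwise, since EPCAM stays below the middle genes either way. Past a log2 fold change of 1 there were 3 genes higher and 2 lower, beside 10.2% and 16.5% of all genes. The counting interval lay wholly above 0 for 3 genes and wholly below 0 for 6, beside 34.8% and 34.7% of all genes, and it held 0 for PROM1 alone.

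**Figure D1:**
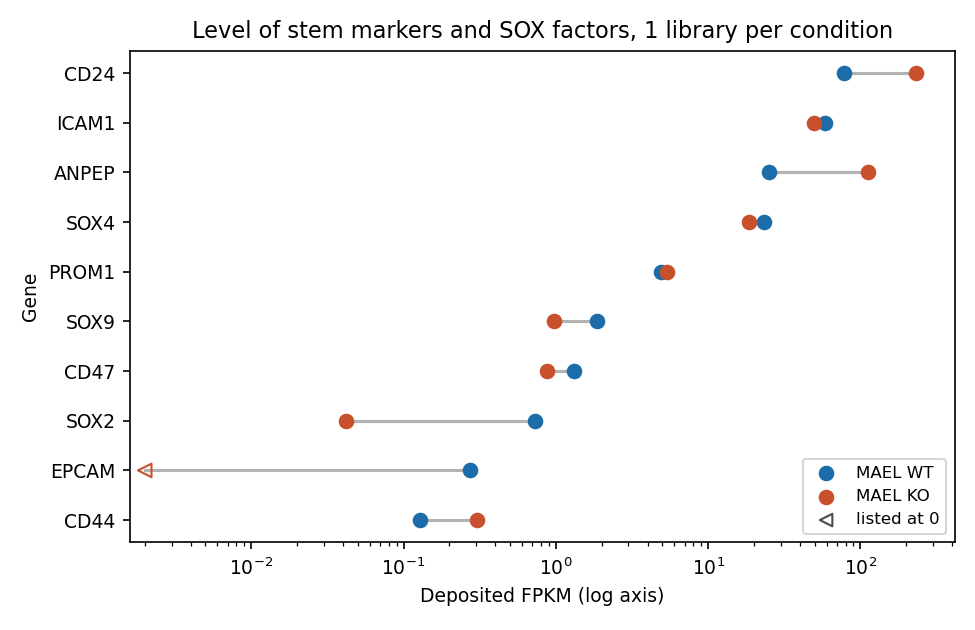
Deposited FPKM (log axis) of the 10 genes in MAEL WT and MAEL KO, 1 point per library, ordered by the level in MAEL WT, with an open triangle for a gene listed at 0. CD24 went from 77.9 to 232 and ANPEP from 25.3 to 113, while SOX2 went from 0.728 to 0.042.

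FPKM, the count scaled by gene length and library size as the authors computed it, allows levels to be compared between genes. In MAEL WT the order was CD24 (77.9), ICAM1 (58.3), ANPEP (25.3), SOX4 (23.4), PROM1 (4.91), SOX9 (1.87), CD47 (1.31), SOX2 (0.728), EPCAM (0.272) and CD44 (0.128). In MAEL KO the first ranks were CD24 (232), ANPEP (113), ICAM1 (49.8), SOX4 (18.5) and PROM1 (5.36), so that ANPEP stood ahead of ICAM1. They were followed by SOX9 (0.979), CD47 (0.872), CD44 (0.306), SOX2 (0.042) and EPCAM, which was listed at 0. The levels span from a marker among the most abundant transcripts of the line to markers near the limit of detection. CD24 ranked 422 by FPKM among the genes tested in MAEL WT and 146 in MAEL KO, whereas CD44 ranked 17196 and 15245. Within the 7 surface markers, CD24 made up 46.3% of the summed FPKM in MAEL WT and 57.9% in MAEL KO, ICAM1 34.7% and 12.4%, and ANPEP reached 28.1% in MAEL KO.

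ANPEP encodes CD13, an aminopeptidase anchored in the cell membrane that trims peptides and, in the liver, lines the bile canaliculi of hepatocytes. It had 2694 counts in MAEL WT and 10425 in MAEL KO, or 2511 and 11243 normalized counts. MAEL KO was the higher library, by 4.48-fold with a counting interval of 4.29 to 4.67, that is, a log2 ratio of 2.16. ANPEP ranked 319 from the top among all genes tested by log2 fold change, and it lies just past the threshold of 2. Against total counts in place of TMM factors its log2 fold change was 1.89, short of the threshold. Of the genes whose higher library had a count within 1.5 times that of ANPEP, 2.36% were at or above its fold change. The 12 hepatocyte markers were all above 0 in log2 fold change, as were 8593 of the 17887 genes tested. Of the 12, 11 were above 0 beyond counting error, beside 34.8% of all genes, with ALB at 7.36 and APOA1 at 3.60. At the count level of ANPEP the median log2 fold change was itself 0.43. The part of the hepatocyte markers in the ANPEP result was not tested.

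Of 15 other cell-surface peptidases and their relatives, 9 passed the count filter, and none lay past 2 or -2, with a median of -0.01. CPD, a carboxypeptidase, was the most counted, with 11149 and 10867 counts. LVRN, another aminopeptidase of the membrane, had 244 counts in MAEL WT and 128 in MAEL KO, or on the log2 scale -0.72 (interval -1.04 to -0.41). ERAP1 and ERAP2, which trim peptides for presentation by MHC class I, had 1235 and 597 counts and 602 and 260 counts, and both were lower in MAEL KO beyond counting error. ENPEP, DPP4 and MME had at most 5 counts in either library, and FAP had 0 in both.

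CD24 is a small glycoprotein held by a lipid anchor, and it binds SIGLEC10 on macrophages and P-selectin on platelets. Its counts were 5275 in MAEL WT and 13639 in MAEL KO, or 4917 and 14709 normalized counts. MAEL KO was higher by 2.99-fold, with an interval of 2.90 to 3.09, which puts the log2 fold change at 1.58, short of 2. Of genes with a like count, within 1.5 times, 20.4% were past a log2 fold change of 1 in this direction and 8.0% were at or above CD24. CD24 has processed copies elsewhere in the genome, of which CD24P4 was listed with 25 and 46 counts, while CD24P1 and CD24P2 had 0. With the counts of these copies added, CD24 had 5300 and 13685 counts and a log2 fold change that was again 1.58.

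CD44, the main receptor for hyaluronan, was a low transcript in both libraries. It had 28 counts in MAEL WT and 58 in MAEL KO over an exonic length of 10004 bases, or 26.1 and 62.6 normalized counts. MAEL KO was higher by 2.40-fold. On the log2 scale this plain ratio is 1.26, with a wide interval of 0.59 to 1.97, and with 1 added the log2 fold change was 1.23. At its count level, 29.5% of genes were past 1 in the opposite direction and 9.76% in this one. The enzymes that make hyaluronan were low as well, with HAS3 at 19 and 14 counts, HAS1 at 1 and 0 and HAS2 at 2 and 0. HMMR, another hyaluronan receptor that also acts at the mitotic spindle, went from 413 to 1060 counts, that is, a log2 ratio of 1.57. The ERM proteins, which tie CD44 to the actin cortex, were abundant and differed little. EZR had 7041 and 5501 counts, RDX 3007 and 2978, and MSN 6077 and 5140, at -0.15, 0.20 and -0.03 on the log2 scale.

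PROM1 encodes CD133, a cholesterol-binding protein of membrane protrusions. It had 799 counts in MAEL WT and 755 in MAEL KO, or 745 and 814 normalized counts. The difference of 1.09-fold had an interval of 0.988 to 1.21, which holds no change, and the log2 ratio was 0.13. The counts thus leave room for a decrease of at most about 1.01-fold or an increase of at most 1.21-fold, as far as counting error and TMM scaling go. The direction turned with the scaling, to -0.15 with total counts and to -0.73 with reference genes. Its paralog PROM2 had 2 and 0 counts. Relative to PROM1, whose ratio to another gene does not depend on scaling, CD24 was 15.8 times as high by FPKM in MAEL WT and 43.4 times in MAEL KO.

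**Figure D2:**
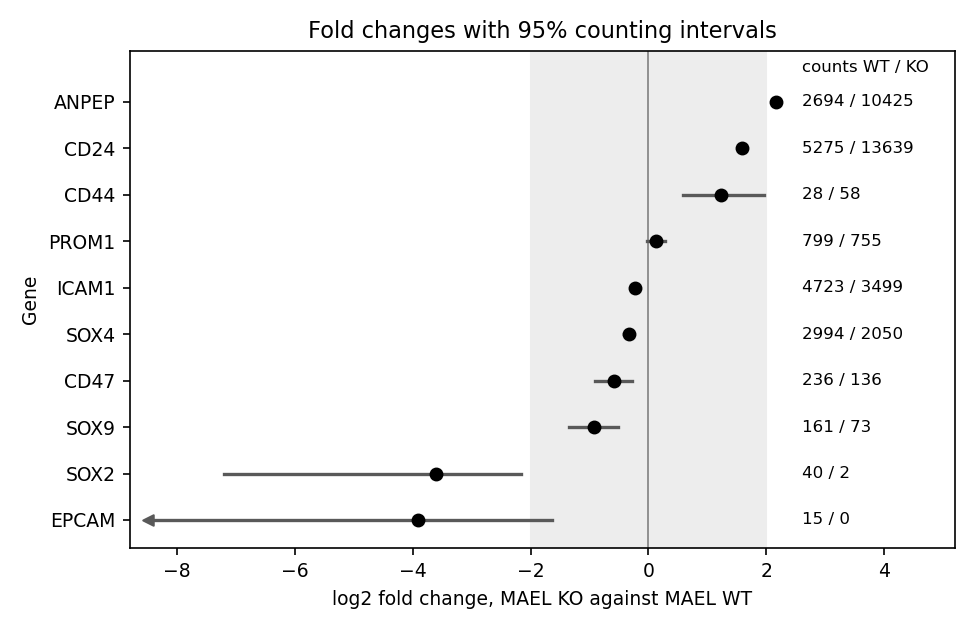
Log2 fold change, MAEL KO over MAEL WT, (points, with 1 added to normalized counts) and 95% counting intervals of the plain ratio (lines) for the 10 genes, with the counts of each library at the right and the band between -2 and 2 in grey. ANPEP at 2.16 lies just past the band, and SOX2 and EPCAM lie below it on few counts, EPCAM with an interval that has no lower end because it had 0 counts in MAEL KO.

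CD47, ICAM1 and EPCAM were the surface markers with less RNA in MAEL KO. CD47 signals to SIRPA on macrophages that the cell is not to be engulfed. It had 236 counts in MAEL WT and 136 in MAEL KO, or on the log2 scale -0.58 (interval -0.90 to -0.27), and 30.2% of genes at its count level were at least as low. SIRPA had 336 and 330 counts. THBS1, the secreted thrombospondin that also binds CD47, had 249 and 160 counts, which puts the log2 fold change at -0.43 (interval -0.72 to -0.14). QPCTL, the enzyme that modifies CD47 so that SIRPA can bind it, went from 1487 to 817 counts, that is, a log2 ratio of -0.65 (interval -0.78 to -0.53).

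ICAM1 holds leukocytes through the integrins LFA-1 and Mac-1, and NF-κB is known to drive its transcription. It had 4723 counts in MAEL WT and 3499 in MAEL KO. The log2 fold change was -0.22 (interval -0.29 to -0.16), a decrease of 14.3% in normalized counts. The size is small beside the spread of all genes, since 23.8% of genes at this count level were at least as low. Of the ICAM1 exonic bases, 22.0% are shared with AC011511.5 on the other strand, which had 1 and 5 counts, and whether counting used strand is not given in the sources used here. The neighboring ICAM5 had 727 and 239 counts, or on the log2 scale -1.39, while ICAM3 and ICAM4 had at most 3 counts. RELA and NFKB1, subunits of NF-κB, were at -0.05 and 0.17. By FPKM, ANPEP stood at 0.434 times ICAM1 in MAEL WT and at 2.27 times in MAEL KO, and CD24 at 1.34 and 4.66 times.

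EPCAM, an epithelial adhesion protein whose intracellular part can enter the nucleus after cleavage, had 15 counts in MAEL WT and 0 in MAEL KO. Against a floor of 3 counts in MAEL KO, it was 4.32-fold lower there. Its counting interval allows a smaller difference, with an end nearest to 0 of 3.10-fold, or -1.63 on the log2 scale. EPCAM passed the count filter only through MAEL WT. At its count level 13.5% of genes were past -2, so a gene this low is past it more often than the 5.64% of all genes. CLDN7, a claudin that binds EPCAM, went from 224 to 55 counts, which puts the log2 fold change at -1.80 (interval -2.27 to -1.38). The cleaving enzymes were well counted, with ADAM17 at 1424 and 1179 counts and PSEN2 at 900 and 725, and the intervals of both held 0. SPINT2, an inhibitor of the proteases that cut EPCAM, had 7335 and 4491 counts, that is, a log2 ratio of -0.50.

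SOX2, a core factor of pluripotent cells, had 40 counts in MAEL WT and 2 in MAEL KO. By normalized counts, 37.3 and 2.16, it was 17.3-fold lower in MAEL KO, with an interval of 4.48 to 148. The interval was -7.21 to -2.16 on the log2 scale, and the fitted value of -3.60 became -2.56 with 5 in place of 1 added to the counts. SOX2, like EPCAM, passed the count filter only through MAEL WT, and its ratio rests on the 2 counts in MAEL KO. SOX2 was a low transcript, at 0.728 FPKM in MAEL WT, and 13.1% of genes at its count level were past -2 while 2.94% were at least as low as SOX2. SOX2-OT, within which SOX2 lies on the same strand, had 0 and 4 counts, and none of its exons overlap that of SOX2.

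SOX4 was the main SOX transcript of the line. It had 2994 counts in MAEL WT and 2050 in MAEL KO, or on the log2 scale -0.34 (interval -0.42 to -0.25), and normalized counts were 20.8% lower. Of genes at this count level 20.3% were at least as low. The long non-coding RNA CASC15 starts 66152 bases beyond the end of SOX4 on chromosome 6, on the same strand. CASC15 went from 1682 to 172 counts, which puts the log2 fold change at -3.07 (interval -3.31 to -2.85), so the difference at this neighbor was larger than at SOX4 itself.

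SOX9, a factor of bile duct and liver progenitor cells, had 161 counts in MAEL WT and 73 in MAEL KO. It was 1.91-fold lower in MAEL KO, with an interval of 1.44 to 2.55, and with 1 added the log2 fold change was -0.92. At its count level 21.4% of genes were past -1. The ratio of SOX4 to SOX9 by FPKM, which does not depend on scaling, was 12.5 in MAEL WT and 18.9 in MAEL KO, a difference of 0.59 on the log2 scale with a counting interval of 0.18 to 1.02. Its antisense gene SOX9-AS1 had 5 and 0 counts. Of 8 bile duct cell markers, all passed the count filter, and 5 were lower in MAEL KO beyond counting error and 2 higher, beside 34.7% and 34.8% of all genes. KRT7, KRT19 and SCTR had 1 to 3 counts in MAEL KO and passed the filter only through MAEL WT. KRT7 went from 60 counts to 1 and CFTR from 207 to 63, while ANXA4 went from 2644 to 10627. Summed over the 8 markers, FPKM was 64.0 in MAEL WT and 98.7 in MAEL KO, and the part of these markers in the SOX9 and EPCAM results was not tested.

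**Figure D3:**
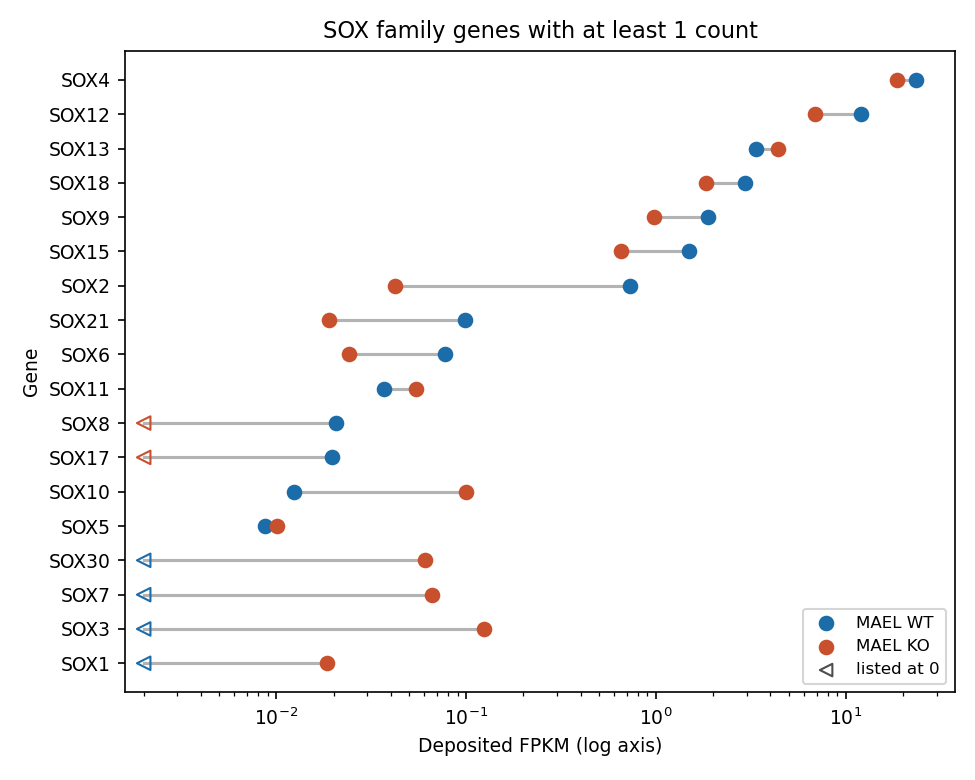
Deposited FPKM (log axis) of the SOX genes with at least 1 count, in MAEL WT and MAEL KO, with an open triangle for a gene listed at 0. SOX4 at 23.4 and 18.5 and SOX12 at 11.9 and 6.89 lead in both libraries, and SOX13 is the only gene above 1 FPKM with the higher level in MAEL KO.

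Over the 19 SOX genes listed, the summed FPKM was 45.9 in MAEL WT and 33.8 in MAEL KO. SOX4 took 50.9% and 54.7% of it and SOX12, the related factor of the same group, 25.9% and 20.4%. Of the 16 SOX genes other than SOX2, SOX4 and SOX9, 5 passed the count filter, and none lay past 2 or -2, with a median of -0.79. SOX12 went from 1207 to 605 counts, or on the log2 scale -0.79 (interval -0.93 to -0.64). SOX18, known from vessels, went from 119 to 65, SOX15 from 50 to 19 and SOX6 from 33 to 9, at -0.65, -1.15 and -1.57 on the log2 scale. SOX13 was the exception, with 544 and 619 counts and 0.40 (interval 0.23 to 0.57). Of all 8 SOX genes that passed the filter, 7 were thus lower in MAEL KO beyond counting error and 1 higher, beside 34.7% and 34.8% of all genes. With reference genes as the scale SOX13 was also lower, and the direction of the 7 others was the same under every scaling tried.

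Other markers of liver cancer stem cells were mixed as well. Of 23 listed, 14 passed the count filter, of which 0 were higher and 3 lower past 2, beside 2.16% and 5.64% of all genes, and the median was -0.24. The 3 lower became 1 at 100 counts or more and 6 with reference genes. ALDH1A1, an aldehyde dehydrogenase used to sort stem-like cells, was by far the most abundant, with 325 FPKM in MAEL WT and 546 in MAEL KO and a log2 fold change of 0.75. NT5E, the ectonucleotidase CD73, went from 1477 to 339 counts, which puts the log2 fold change at -1.91 (interval -2.09 to -1.74). ANXA3 went from 669 to 109 counts, that is, a log2 ratio of -2.40 (interval -2.71 to -2.11). The low keratins KRT7 and KRT19 were the others past -2, KRT19 at 13 counts in MAEL WT and 1 in MAEL KO, and both passed the count filter only through MAEL WT. CACNA2D1, a calcium channel subunit, was at -1.16, and ABCG2, a drug efflux pump, at 0.32. SALL4, an oncofetal factor, went from 385 to 676 counts and LGR5 from 10 to 24, at 1.02 and 1.38. THY1, KIT, DLK1, NCAM1 and CD34 had at most 5 counts in either library.

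**Figure D4:**
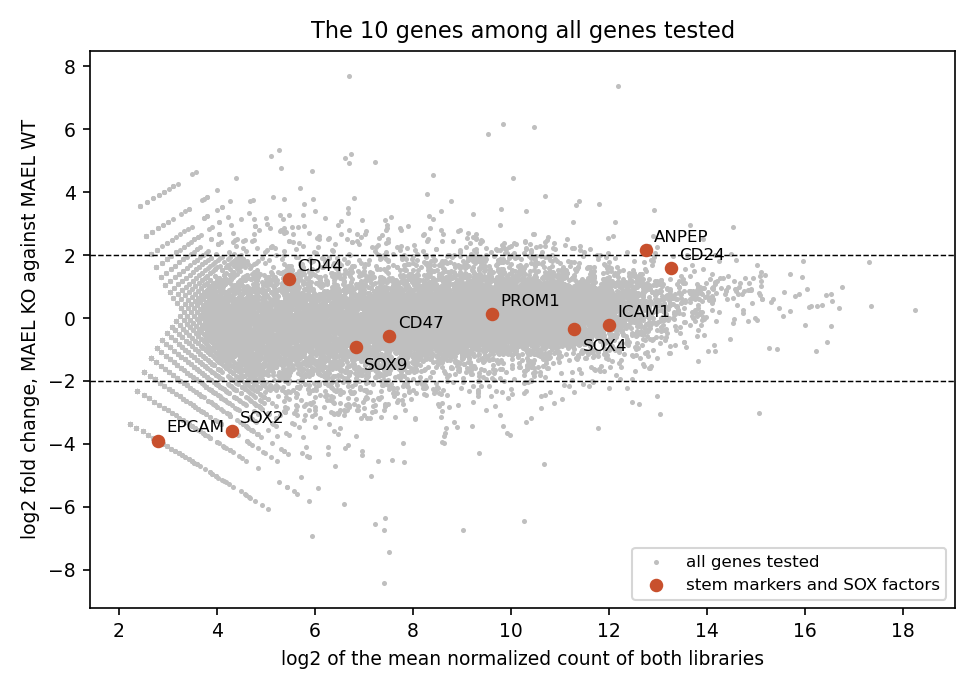
Log2 fold change, MAEL KO over MAEL WT, over the log2 mean normalized count of both libraries, for the 17887 genes tested (grey) and the 10 stem markers and SOX factors (named), with dashed lines at -2 and 2. ANPEP and CD24 lie high up among highly counted genes, and SOX2 and EPCAM lie where counts are few and many genes are past -2.

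The ligands and linkers of the surface markers and the enzymes that process them were set beside them. Of 24 ligands, receptors and linkers, 14 passed the count filter and none lay past 2 or -2, with a median of 0.00. ITGAL, the LFA-1 chain that binds ICAM1, went from 281 to 495 counts, and ITGAM, its counterpart in Mac-1, from 50 to 21, at 1.02 and -1.01. The shared beta chain ITGB2 had 9 and 3 counts. The tetraspanin CD82 was at -1.52 and CD9 at 0.62. Of 22 proteases, inhibitors and splicing factors, 18 passed the filter, 1 past 2 in each direction, with a median of -0.08. The higher one was the membrane protease ST14, with 4 and 27 counts, and the lower one was ESRP1, with 10 and 0. Against a floor of 3 counts in MAEL KO, ESRP1 was only 2.88-fold lower, short of the threshold. ESRP2, which like ESRP1 favors the epithelial splice forms of CD44, went from 1171 to 1791 counts, at 0.82, and HNRNPM, known to favor the short form, from 3755 to 8603, at 1.41. MMP14, a protease that sheds CD44, went from 548 to 128 counts, or on the log2 scale -1.88. Which CD44 forms were made could not be read from counts per gene.

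Among 30 regulators and partners of the SOX factors and stem markers, 29 passed the count filter, with a median of 0.01, and KLF4 alone passed 2, at -2.39 on 1160 and 190 counts. Of the other genes that the study lists primers for or blotted, MYC had 3014 and 3943 counts (0.60), POU5F1 11 and 5 (interval -2.80 to 0.72) and NANOG 0 in both libraries. Factors known from the liver lay on both sides, with PROX1 at 1.64, ONECUT1 at 1.22 and FOXA1 at 0.75, but FOXA2 at -0.46 (interval -0.56 to -0.36) and ONECUT2 at -0.26 (interval -0.44 to -0.07). In the Notch pathway, which acts on SOX9 in bile duct formation, the values went both ways. NOTCH3 was at -1.45 and HEY1 at -1.47, whereas JAG1 was at 0.78 and HES1 at 0.80. YAP1 and WWTR1, the Hippo pathway effectors, were at 0.02 and -0.28, and STAT3 at -0.28.

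**Figure D5:**
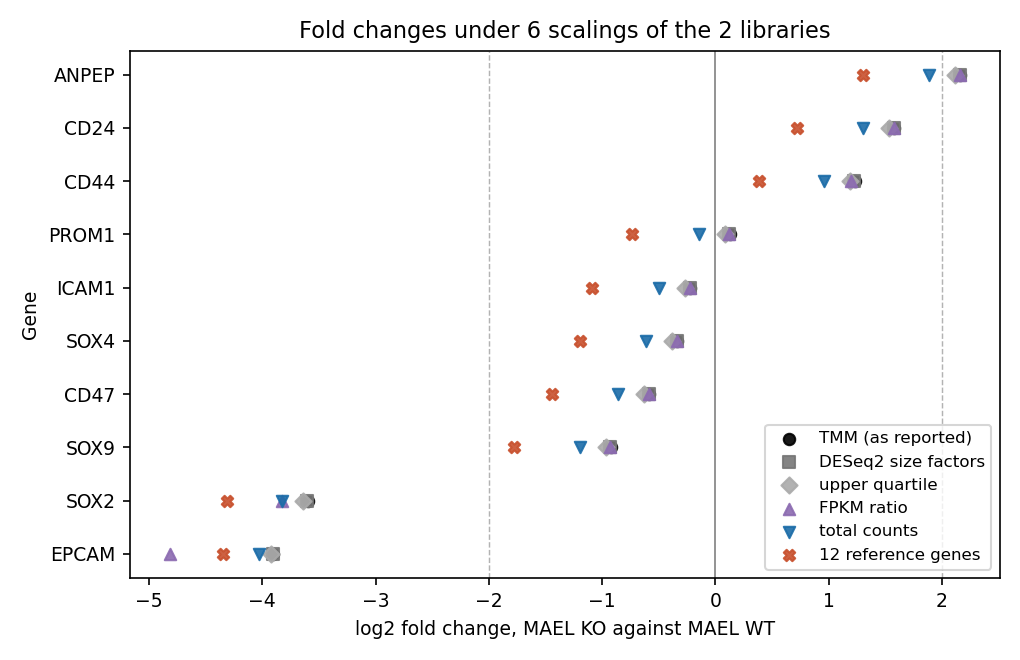
Log2 fold change, MAEL KO over MAEL WT, of the 10 genes under 6 ways of scaling the libraries, 1 marker each, with dashed lines at -2 and 2. The 4 scalings by TMM, DESeq2 size factors, upper quartile and deposited FPKM nearly coincide for the 8 genes with over 50 counts in a library. The FPKM imply the same ratio of library sizes as the DESeq2 size factors, so the closeness of these markers was fixed in advance. With 12 reference genes every gene lies further left than by TMM, with PROM1 at -0.73 and ANPEP at 1.30. EPCAM lies furthest left by deposited FPKM, at -4.82.

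The choice of scale moved all 10 genes together. The study named 18S RNA as the control of its RNA measurements, for which no value was used here, and a set of 12 commonly used reference genes was tried. These genes were themselves higher in MAEL KO by TMM, all 12 above 0 and 9 beyond counting error, beside 34.8% of all genes. Their median was 0.91. GAPDH went from 30302 to 92598 counts and ACTB from 20126 to 48276, at 1.82 and 1.47, whereas TBP and GUSB lay at 0.05 and 0.07. On the scale of all 12, the median of all genes tested was -0.89, and CD24 was at 0.72, ANPEP at 1.30, CD44 at 0.39, PROM1 at -0.73, ICAM1 at -1.09, SOX4 at -1.20, CD47 at -1.44 and SOX9 at -1.78. On this scale no member passed 2 upward. Differences between members do not depend on the scale. The log2 difference between ANPEP and ICAM1 was 2.38 (interval 2.30 to 2.47), that between CD24 and CD47 was 2.17 (interval 1.85 to 2.48), and that between CD44 and PROM1 was 1.13 (interval 0.44 to 1.85).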

How the data were processed

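Total RNA of MAEL WT and MAEL KO cells was used by the authors for HiSeq libraries. The submitters' processing notes name HISAT2 2.0.5, featureCounts 1.5.0-p3 and build hg19, but all 58735 gene IDs of the deposited tables have the start and end of GENCODE 29 on GRCh38, which was used here. The authors deposited read counts per gene, without normalization, and FPKM values, which imply library sizes of 21872531 in MAEL WT and 18958459 in MAEL KO rather than the totals. Every column of sample values was used.

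Counts were scaled by TMM factors in edgeR 4.0.16 (R 4.3.3) to the mean effective library size, 1 was added, and the log2 ratio was taken for every gene reaching 10 counts in either library. Intervals were computed in Python 3.11.15 with SciPy 1.17.1. Only for the ratios given against a floor, and for 1 check of the median, was a library at 0 set at 3 counts. This floor is 0.151 CPM in MAEL WT and 0.144 in MAEL KO. The log2 fold changes and the counts of genes past a threshold used the 1 added instead. As no molecular identifiers were used as far as the sources here say, reads may come from the same molecule. A band of like count holds genes whose higher library is within 1.5 times. Primer sites were searched with at most 1 difference. The fold change and interval steps were tested on counts simulated with known fold changes. DESeq2 1.42.0 gave other size factors.

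The members and all lists were chosen with earlier results of these data known, and any listed gene could be named. Some listed genes are counted in the lists but not reported here by name.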

Additional observations from a re-analysis of the deposited data

How the results depend on the processing

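No paired analysis was possible because each condition has 1 library, and for the same reason no library could be left out. Of the 10 genes, ANPEP alone was past 2 upward, and 0 genes were with total counts or reference genes, and 3 at a log2 threshold of 1. SOX2 and EPCAM were past it downward, SOX2 alone with 5 added to the counts (EPCAM -1.92), and 0 genes at 100 counts or more, since neither reaches that count. Over all genes the 387 higher and 1008 lower became 185 and 283 at 100 counts or more, 1029 and 1773 with no count filter, 250 and 513 with 5 added, 1827 and 2951 at a threshold of 1, and 149 and 2428 with reference genes. Total counts gave 269 and 1309. Adding the CD24 copies, an alternative chosen after seeing the data, left CD24 at 1.58. Of 88 values of the 10 genes under other settings, 13 moved beyond their counting interval, all of them under total counts or reference genes, and none beyond counting error changed sign. PROM1, whose interval held 0, changed sign under both. The 88 values include those with another count filter or none, which cannot change the fold change of a single gene. They also include those by FPKM, which nearly repeat those by DESeq2 size factors for well-counted genes. The 13 thus say little about how stable the fold changes are. Of 54 list medians 4 moved, and of 120 list counts past 2 or -2, 28 moved. Ligands and linkers went from 0 lower to 1 with total counts and 2 with reference genes. Proteases and splicing factors went from 1 higher and 1 lower to 0 and 3 with reference genes, and to 0 and 0 at 100 counts or more or with 5 added. Other SOX genes and other peptidases each went from 0 lower to 1 with reference genes, and the regulators from 1 lower to 3. For SOX2, EPCAM, CD44 and KRT7 the depth sets the limit, with 0 to 60 counts in a library.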
